A study of Saccharomyces cerevisiae x Saccharomyces kudriavzevii with 6 samples.

Results

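The Lsm proteins and the decapping activators *PAT1* and *DHH1* were examined in VIN7 and W27, hybrids of *S. cerevisiae* and *S. kudriavzevii*, at low temperature. The set holds 10 genes, *LSM1* to *LSM8*, *PAT1* and *DHH1*, and was defined by their ORF identifiers. Of the 10, 7 had a row among the 5616 ORFs of the deposited table. *LSM2* (YBL026W), *LSM3* (YLR438C-A) and *LSM5* (YER146W) were not analysed here. Only the name of *LSM8* is paired with its ORF in the study's tables, and the other names follow the list that defined the set.

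The Lsm proteins close into a ring that binds the 3′ end of an RNA. Yeast has a cytoplasmic ring that contains Lsm1 and a nuclear ring that contains Lsm8 in its place, and both rings share the other 6 subunits, Lsm2 to Lsm7. The cytoplasmic ring joins Pat1 on mRNAs that have lost most of their poly(A) tail and promotes removal of the cap, whereas the nuclear ring binds the U6 small nuclear RNA of the spliceosome. Dhh1 is a DEAD-box RNA helicase that represses translation and also promotes decapping.

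Each hybrid was grown in Tempranillo must at 12°C and at 28°C, and total RNA was taken at the beginning of the exponential phase. RNA of both temperatures competed on the same array, and each strain has 3 arrays, named A, B and C here. The 12°C sample carried Cy5 except on the dye-swapped VIN7 C, so effects of dye and temperature cannot be told apart in W27. Each group is a single commercial strain, an allotriploid, and the PCR-amplified S288c ORFs on the array read the *S. cerevisiae* and *S. kudriavzevii* alleles of a gene together. The study's account of the genomes has VIN7 without the *S. kudriavzevii* chromosome III, where *PAT1* (YCR077C) lies, and both strains without parts of chromosome IV, where *DHH1* (YDL160C) and *LSM6* (YDR378C) lie. Whether these last 2 genes are in the missing parts was not examined. Values are log2 ratios of 12°C over 28°C, centred near 0 on each array, so a value above 0 means a larger share of the labelled RNA at 12°C. A change in the total mRNA of a cell cannot be told apart from no change on this scale.

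The arrays differed in spread. The SD over all ORFs ran from 0.392 on VIN7 C to 1.71 on VIN7 B, so the same log2 ratio is common on one array and rare on another, and each value is therefore given with its percentile among the ORFs of its array. Over ORFs, W27 A ran against W27 B (r = -0.137) and W27 C (r = -0.186), while W27 B and C resembled each other (r = 0.795). VIN7 B and C were nearly unrelated (r = 0.0553). VIN7 A correlated similarly with VIN7 B (r = 0.363) and with VIN7 C as deposited (r = 0.369). Its largest correlations were with arrays of the other strain, 0.657 for W27 B and 0.611 for W27 C. For VIN7 B these 2 values were 0.305 and 0.346, and for VIN7 C only 0.0723 and 0.0928. W27 A ran against every VIN7 array (r from -0.273 to -0.103). The arrays thus did not group by strain, which limits each contrast of VIN7 with W27 given here. Several means that rest mainly on W27 A or VIN7 C are given also without that array or with its sign turned.

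The ring genes were sparsely measured. The 5 *LSM* genes with a row had 14 values in 30 possible (46.7%), against 83.2% over the whole table, and none had more than 3. *PAT1* and *DHH1* had all 12 of 12. The Sm proteins, relatives of the Lsm proteins that form the ring of the other spliceosomal small nuclear RNAs, also had few values, 20 of 36 (55.6%), whereas the proteins that bind U6 or join it in the tri-snRNP had 75 of 84 (89.3%). No *LSM* gene had a value on W27 C, and on VIN7 A only *LSM1* had one.

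**Figure D1:**
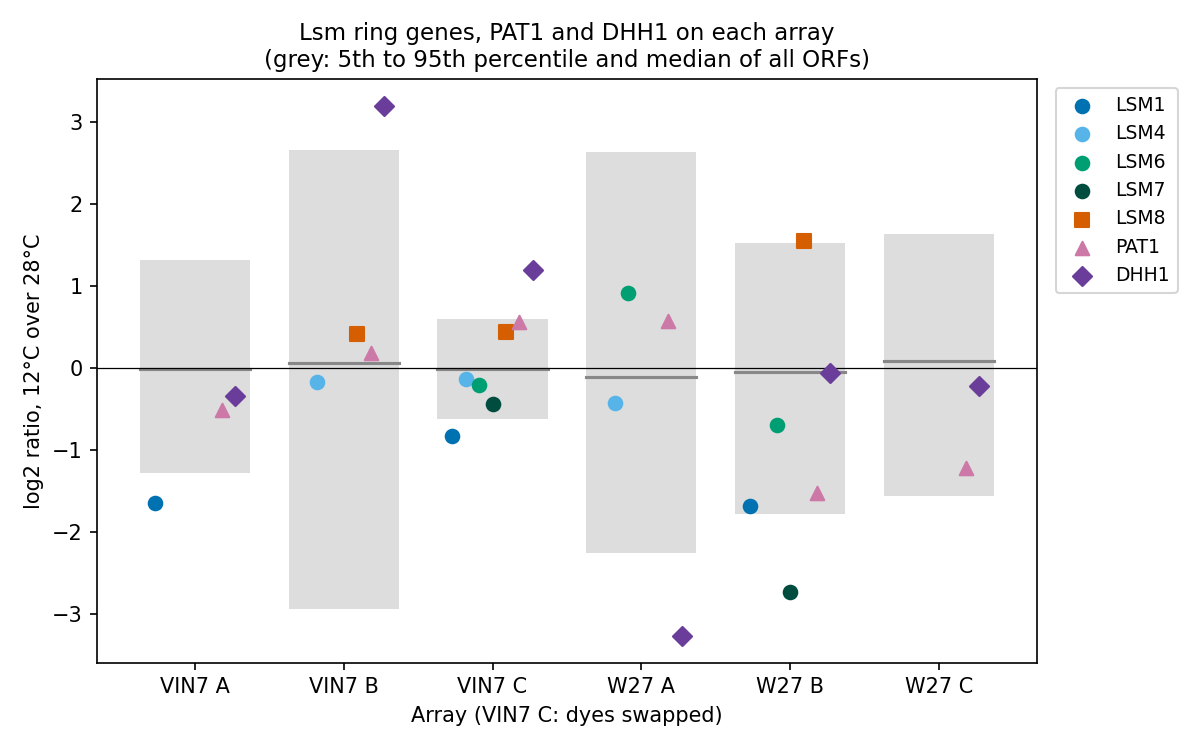
Log2 ratio of 12°C over 28°C (vertical axis) of each measured gene on each of the 6 arrays (horizontal axis). Each symbol is 1 spot value, the grey bars span the 5th to the 95th percentile of all ORFs on the array and the grey lines mark their median. *LSM1* lies below the bar on VIN7 A and C, and *DHH1* lies above it on VIN7 B and C and below it on W27 A. On W27 B *LSM7* lies below the bar and *LSM8* just above it.

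*LSM1* (YJL124C), the subunit found only in the cytoplasmic ring, was lower at 12°C wherever it had a value. It stood at -1.65 on VIN7 A, -0.83 on VIN7 C and -1.69 on W27 B, which are 3.14-fold, 1.78-fold and 3.23-fold lower. As deposited, these values lay at percentiles 2.20, 1.64 and 5.74 of their arrays. In W27 this rests on 1 array. Only VIN7 C was dye-swapped, so effects of dye and array cannot be told apart for this spot. Its VIN7 mean was -1.24 ± 0.58 (SD, n = 2), with a 95% interval of -2.44 to -0.04 by limma, and it did not pass the false discovery rate of 5% over the 5100 ORFs tested (adjusted p = 0.612 by limma). Of those ORFs, 0% were called in VIN7. Its mean was -0.41 if the sign of VIN7 C was turned, -1.65 on VIN7 A alone, and -2.30 with the arrays scaled to a common spread (limma adjusted p = 0.217).

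*LSM8* (YJR022W), the subunit that takes the place of Lsm1 in the nuclear ring, had the opposite sign. It stood at 0.41 on VIN7 B, 0.44 on VIN7 C and 1.55 on W27 B, at percentiles 61.0, 88.8 and 95.4. All 3 values were thus above 0, and the W27 value was 2.93-fold higher at 12°C. The VIN7 mean was 0.43 ± 0.016 (SD, n = 2), with a 95% interval of -0.59 to 1.44 by limma (adjusted p = 0.643), and the W27 value has no replicate beside it. The VIN7 mean moved to -0.011 if the sign of VIN7 C was turned, and it was 0.41 on VIN7 B alone and 0.74 with the arrays scaled to a common spread.

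The subunits that set the 2 rings apart were measured side by side on only 2 arrays. *LSM8* exceeded *LSM1* by 1.27 on VIN7 C and by 3.24 on W27 B, both as differences of log2 ratios within an array. On W27 B *LSM8* was the single gene of the set above 0, with 5 of the 6 measured there below 0 (beside 52.4% of all ORFs on that array), and *LSM1* was the second lowest. This contrast was noticed after the values were seen, and 1 array per strain gives no test of it.

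Among the subunits common to both rings, *LSM7* (YNL147W) had the lowest value of the ring. It stood at -2.73 on W27 B, 6.64-fold lower and at percentile 1.37, and at -0.44 on VIN7 C, at percentile 11.5. The VIN7 value was -1.20 with the arrays scaled to a common spread, and 0.44 if the sign of VIN7 C was turned. *LSM4* (YER112W) stayed near the middle of every array that held it, at -0.18 on VIN7 B, -0.13 on VIN7 C and -0.43 on W27 A, between percentiles 35.6 and 43.1. Its VIN7 mean was -0.15 ± 0.033 (SD, n = 2), with a 95% interval of -1.17 to 0.86 (adjusted p = 0.852 by limma). That mean was -0.023 if the sign of VIN7 C was turned, and the W27 value was 0.43 if that of W27 A was turned. *LSM6* (YDR378C) had no settled sign. It was at -0.20 on VIN7 C (0.20 if that sign was turned), 0.92 on W27 A and -0.69 on W27 B. Its W27 mean was 0.12 ± 1.14 (SD, n = 2; limma adjusted p = 0.976, where 0% of the 4894 ORFs tested were called), so the sign of that mean rests on W27 A.

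Over all their arrays, 3 of the 7 genes, *LSM1*, *LSM4* and *LSM7*, were below 0 wherever they had a value, and 1, *LSM8*, was above 0, counting genes with at least 2 values. For comparison, 17.4% of the ORFs with 3 values were below 0 on all 3, 15.6% were above 0 on all 3, and 18.3% of the ORFs with 2 values were below 0 on both. *LSM1*, *LSM4*, *LSM6* and *LSM8* have 3 values and *LSM7* has 2. *PAT1* and *DHH1* have 6 each, and no share was computed for such ORFs, so 3 of 7 has no matching background. The count of 3 was 2 without VIN7 C or without W27 B, where *LSM7* keeps only 1 value, also below 0, and is no longer counted. It was 4 without W27 A, where *LSM6* joins. With the sign of VIN7 C turned, no gene kept one sign, because each of these 4 genes has a value there. The median over the 7 genes of their means was -0.15 in VIN7 and -0.72 in W27, beside -0.04 and -0.01 over all ORFs. The W27 median rested on few values per gene and lay between -1.03 and -0.38 when each W27 array was left out.

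**Figure D2:**
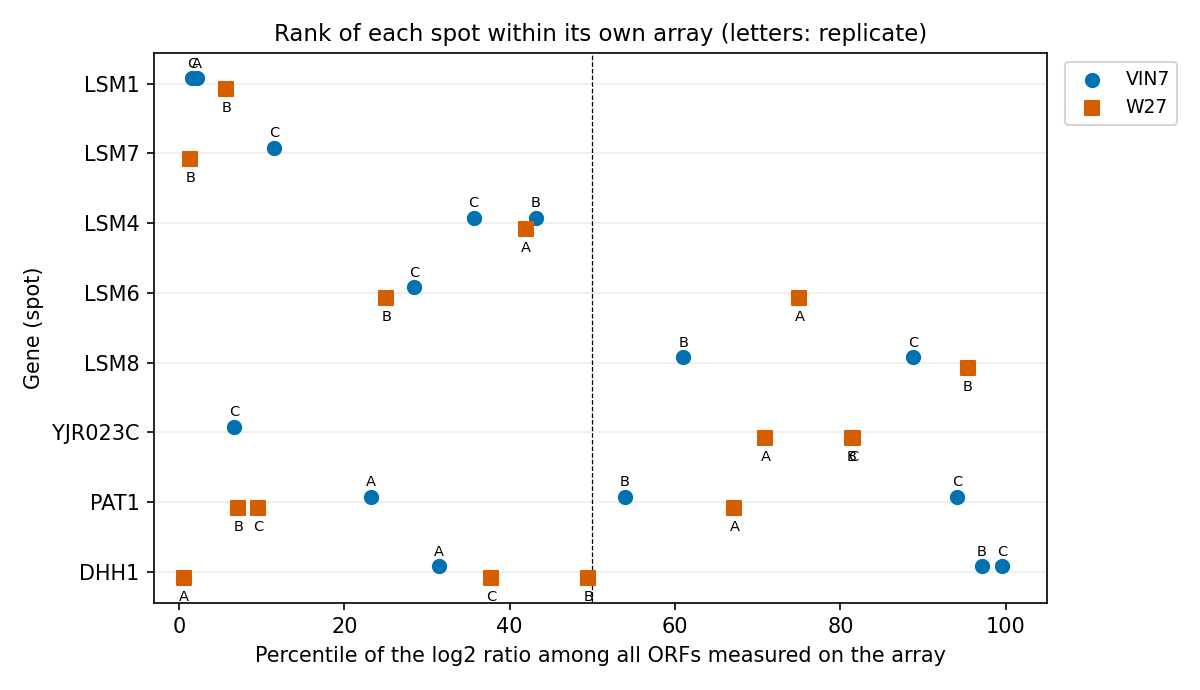
Percentile of each log2 ratio among all ORFs measured on the same array (horizontal axis, in percent) for each spot (vertical axis). Circles are VIN7 arrays, squares are W27 arrays, letters name the replicate and the dashed line marks percentile 50. The 3 *LSM1* values lie at or under percentile 5.74 and the 3 *LSM8* values at or above percentile 61.0, while *DHH1* spans percentiles 0.621 to 99.6.

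The spot of *YJR023C*, a dubious ORF that the paper describes as overlapping *LSM8*, reads part of the same stretch of DNA. It had a value beside *LSM8* on 2 arrays. On W27 B both spots were above 0, *YJR023C* at 0.77 (percentile 81.4) and *LSM8* at 1.55. On VIN7 C *YJR023C* was at -0.56 (percentile 6.67) while *LSM8* was at 0.44, so the 2 spots were near opposite ends of that array. In W27 the *YJR023C* spot was at 0.74, 0.77 and 0.93 on A, B and C, a spread (SD 0.098, n = 3) far smaller than that of *PAT1* (1.13) or *DHH1* (1.81) on the same arrays. Its mean of 0.81 had a 95% interval of -0.18 to 1.80 (adjusted p = 0.699 by limma). It passed without W27 A (0.85, 95% interval 0.27 to 1.42, limma adjusted p = 0.0258), in the fit that called 39.1% of the 3938 ORFs it tested. It also passed with arrays weighted by their estimated precision (0.82, limma adjusted p = 0.00834), in a fit that called 2318 of the 4894 ORFs tested in W27. The VIN7 value is 0.56 if the sign of VIN7 C is turned, and the 2 strains then have the same sign. Both ORFs appear in the study's lists of regulated genes, drawn in part from these arrays, so their direction here is not independent evidence. The same holds for the small spread of *YJR023C* in W27, since *PAT1* and *DHH1* were not chosen in that way. A double-stranded PCR product binds labelled cDNA of either strand, hence transcripts from the overlapping ORFs cannot be told apart.

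*PAT1*, the partner of the cytoplasmic ring, was measured on all 6 arrays. In VIN7 it stood at -0.51 on A, 0.18 on B and 0.56 on C, giving 0.08 ± 0.55 as the mean (SD, n = 3; 95% interval -0.79 to 0.94, limma adjusted p = 0.921). In W27 it was at 0.57 on A, -1.53 on B and -1.22 on C, giving -0.72 ± 1.13 (SD, n = 3; 95% interval -2.13 to 0.68, limma adjusted p = 0.755). The strains overlapped, because W27 A lay above every VIN7 array. On W27 B and C the spot was at percentiles 7.19 and 9.55, whereas on W27 A it was at percentile 67.2.

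Without W27 A, *PAT1* passed the false discovery rate in W27, at a mean of -1.37 (95% interval -1.95 to -0.79, adjusted p = 0.00318 by limma). That fit called 39.1% of the 3938 ORFs it tested, and 19.6% were called as lower at 12°C, so a call in it is common. *DHH1*, the only other gene of the set it could test, was not called (-0.15, adjusted p = 0.682). *PAT1* also passed with the arrays weighted by their estimated precision (-1.40, adjusted p = 1.24e-04 by limma). That weighted fit called 2318 of the 4894 ORFs tested in W27, so a call in it is common too. Its values for *PAT1* and *DHH1* (-0.17) lay close to those without W27 A, so this call may repeat that result. The adjusted p of *PAT1* ran from 1.24e-04 to 1 over the alternatives. The W27 mean was -0.32 without W27 B and -0.48 without W27 C, and neither passed.

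*DHH1* had the widest range of the set. In VIN7 it stood at -0.34 on A, 3.20 on B and 1.19 on C, at percentiles 31.4, 97.1 and 99.6. In W27 it stood at -3.27 on A, -0.07 on B and -0.23 on C, at percentiles 0.621, 49.5 and 37.8. As deposited, *DHH1* was thus among the highest ORFs on VIN7 B and on the dye-swapped VIN7 C. It was near the middle of W27 B and C, and among the lowest on W27 A alone. The VIN7 mean was 1.35 ± 1.78 (SD, n = 3; 95% interval -0.57 to 3.28, limma adjusted p = 0.612), but 0.43 when VIN7 B was left out, 2.20 without VIN7 A and 1.43 without VIN7 C. It was 0.56 if the sign of VIN7 C was turned and 0.15 with array weights. The W27 mean was -1.19 ± 1.81 (SD, n = 3; 95% interval -3.07 to 0.69, limma adjusted p = 0.718), but -0.15 when W27 A was left out.

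**Figure D3:**
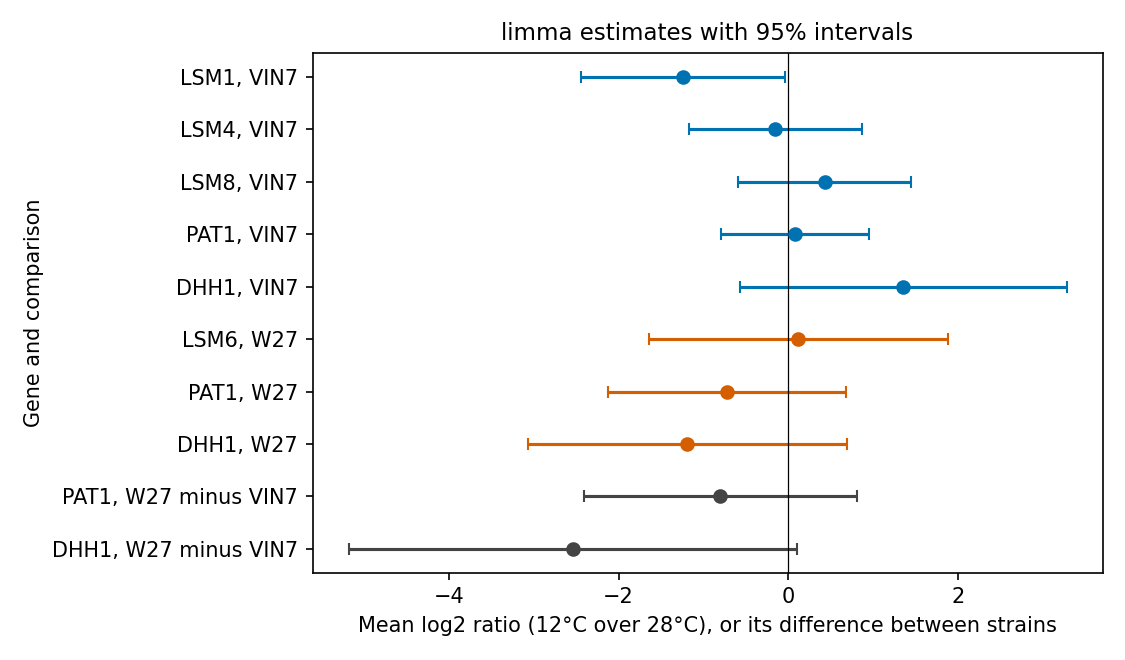
Mean log2 ratio of 12°C over 28°C, or its W27 minus VIN7 difference (horizontal axis), for each gene that could be tested in each comparison (vertical axis). Points are limma estimates and bars their 95% intervals. Every interval contains 0 except that of *LSM1* in VIN7, which ends at -0.04 and is not adjusted for the 5100 ORFs tested.

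Only *PAT1* and *DHH1* had enough values for a test between the strains. VIN7 has 1 dye-swapped array and W27 has none, so effects of dye and strain are partly mixed in that test. The W27 minus VIN7 difference was -0.80 for *PAT1* (standard error 0.69, 95% interval -2.40 to 0.80) and -2.54 for *DHH1* (standard error 1.14, 95% interval -5.18 to 0.10) (limma adjusted p = 0.893 for both). None of the 4670 ORFs tested was called (0%), and 147 of them, but neither of these genes, had an unadjusted p under 0.05 (3.15%). The *DHH1* values overlapped between the strains, since VIN7 A at -0.34 lay among the W27 values. The *PAT1* difference was -1.45 without W27 A, -0.40 without W27 B and -1.14 with array weights (limma adjusted p = 0.0966). The *DHH1* difference grew to -3.39 without VIN7 A, and it shrank to -1.50 without W27 A, to -1.61 without VIN7 B and to -0.28 with array weights. With a sign turned it was -1.75 for VIN7 C and -0.36 for W27 A. With a dye term in the model the difference was -0.56 for *PAT1* and -2.62 for *DHH1* (limma adjusted p = 0.974 for both). These are also the differences without VIN7 C, the only dye-swapped array. In the tests within a strain, 1 of the 5 genes tested in VIN7 (*LSM1*) and 0 of the 3 tested in W27 had an unadjusted p under 0.05, beside 5.47% and 7.27% of all ORFs tested. By the size of the change, a median of at least 2-fold was reached in VIN7 by *DHH1*, higher at 12°C (5.71% of ORFs tested), and by *LSM1*, lower (4.1%), and in W27 by *PAT1*, lower (10.8%), and by no tested gene of the set in the higher direction (10.3%). The one-class SAM test called none of the set, and it could use only *PAT1* and *DHH1*, which have 3 values per strain.

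The neighbours of these genes in the same pathways were summarised as lists, without naming single ORFs, because no table used here pairs their names with ORF identifiers. The lists were written from general knowledge of the yeast pathways. By limma with all arrays, 0 of 48 listed ORFs tested in VIN7 and 0 of 49 in W27 were called, beside 0% of all ORFs in each strain. Of them 6 (VIN7) and 1 (W27) had an unadjusted p under 0.05, beside 5.47% and 7.27% of all ORFs. SAM called 0 of the 30 and 36 listed ORFs it could use, and 11 and 5 ORFs in all. The list for decapping and 5′ to 3′ decay, which covers the decapping enzyme, its enhancers, the exonuclease that follows it and the nonsense-mediated decay factors, had 11 measured ORFs. Its median was -0.14 in VIN7 and -0.08 in W27, and 2 of 10 and 0 of 10 tested ORFs had an unadjusted p under 0.05 (beside the same 5.47% and 7.27%). For the deadenylation genes, whose products shorten the poly(A) tail before the cytoplasmic ring binds, the medians were -0.04 and 0.09 over 12 ORFs. For the exosome and Ski genes, which degrade mRNA from the other end, they were -0.24 over 13 ORFs in VIN7 and 0.04 over 12 in W27.

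On the nuclear side, the U6 and tri-snRNP proteins had medians of -0.07 over 14 ORFs in VIN7 and -0.43 over 13 in W27, and the Sm proteins -0.28 over 6 and -0.11 over 5. Without W27 A, the limma fit called 2 of 7 decapping and decay ORFs higher and 1 lower, 0 of 7 deadenylation ORFs, 2 of 9 exosome and Ski ORFs higher and 1 lower, 2 of 12 U6 and tri-snRNP ORFs higher and 3 lower, and 1 of 3 Sm ORFs higher, against 39.1% of all ORFs in that fit. By array, the median of the Lsm, *PAT1* and *DHH1* values was -1.11 on W27 B over 6 genes, where the medians of the other lists lay between -0.33 and 0.35. On W27 A it was 0.07 over 4 genes.

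**Figure D4:**
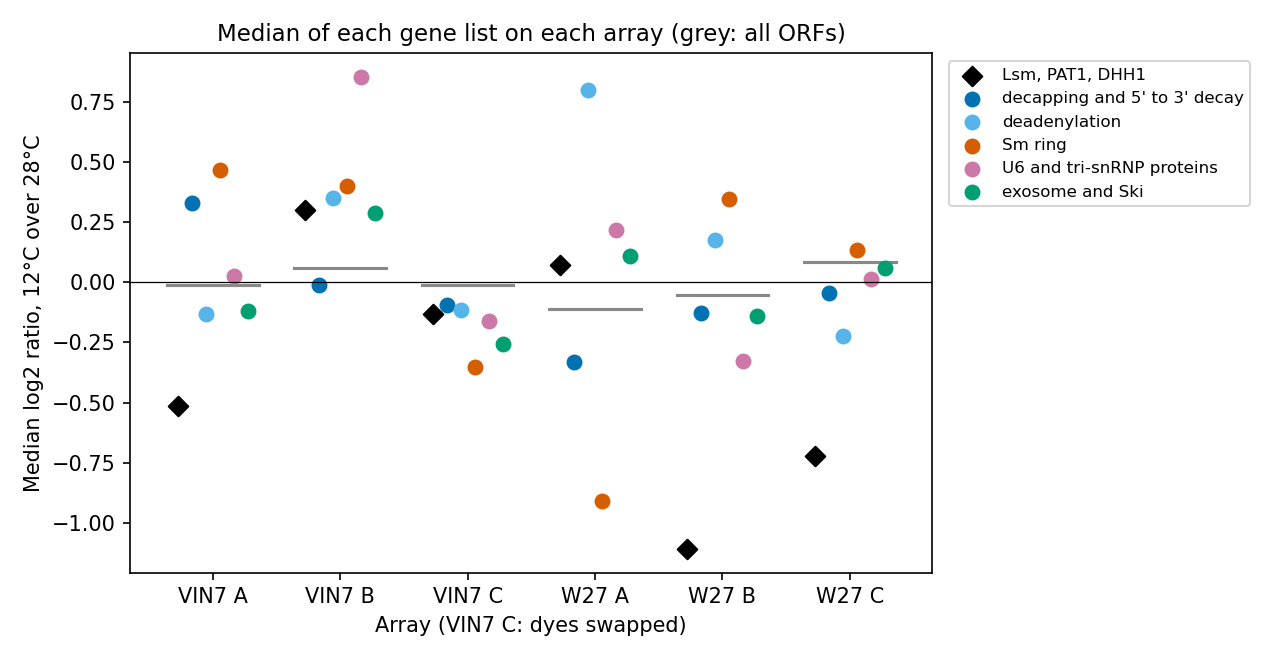
Median log2 ratio of 12°C over 28°C (vertical axis) of the *LSM*, *PAT1* and *DHH1* spots (diamonds) and of 5 related gene lists (circles) on each array (horizontal axis), with the median of all ORFs as grey lines. The diamonds rest on 2 to 7 genes and the circles on 1 to 14. The diamond lies lowest on VIN7 A, W27 B and W27 C, but not on the other arrays.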

How the data were processed

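Per the Methods, spot intensities and background correction came from GenePix, and normalization by array and the print tip correction from Acuity. The authors deposited 1 log2 ratio per ORF and array, with missing values for some spots. The Methods name a log2 ratio of 1 as the target of normalization, whereas the array medians lay between -0.11 (W27 A) and 0.083 (W27 C). The exact centring is therefore unclear, and scanner values were not used here. Strain, replicate and dye came from the labels, and 0 sample columns were left unused. The direction was kept as deposited. The labels call the 3 arrays of a strain biological replicates, whereas the Methods describe 2 fermentations per strain, so p-values measure the spread between arrays, which may be partly technical, and their number limits the precision.

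Each strain's mean was tested against 0, and W27 minus VIN7 over 6 arrays, with limma 3.58.1 in R 4.3.3 over all ORFs with at least 2 values per strain concerned, two-sided, with a Benjamini-Hochberg false discovery rate of 5%. Intervals are 95% and moderated by limma, and the SD of a gene is over its arrays. A percentile is the share of ORFs on the same array with a lower value. SAM, the test named by the study, was rebuilt in its one-class form as an alternative. The functions were tested on simulated arrays of equal spread, with changes placed in ORFs that have all values. That test does not show how they perform on arrays of unequal spread or on genes with few values, as here. Replicate letters were not used to pair the arrays in the main tests, and whether same-lettered arrays belong together could not be decided. The genes, lists and tests were chosen with earlier results of these data known. All genes of the set are named. The naming rule also covered genes of the related lists, and these are given as counts only, because their names could not be matched to ORFs.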

Additional observations from a re-analysis of the deposited data

Results flagged for a closer look

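*YJR023C* had opposite signs in the strains on every array that measured it. It was at -0.56 on VIN7 C and at 0.74 to 0.93 on the 3 W27 arrays, a W27 minus VIN7 difference of 1.37 between the means. The difference was not tested, since VIN7 has 1 value, and that value came from the dye-swapped array. If VIN7 C is taken in the opposite direction, its value is 0.56 and the signs no longer differ.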

How the results depend on the processing

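With all arrays as deposited, 0 genes of the set and 0 ORFs in all were called in VIN7, in W27 or between the strains. With array weights, 1 gene of the set (*PAT1*) and 2318 of the 4894 ORFs tested were called in W27. Between the strains, 131 of the 4670 ORFs tested were called with array weights. SAM called 11 ORFs in VIN7 and 5 in W27, none of the set. Leaving out each array gave 0 to 1 gene of the set and 0 to 1540 ORFs in W27. The highest counts are those without W27 A, where 39.1% of the 3938 ORFs tested were called. With the sign of VIN7 C turned, 0 genes were below 0 and 0 above 0 on every array. *PAT1* in VIN7 was -0.24 with array weights and -0.30 with VIN7 C turned, and -0.17 to 0.37 over the fits that leave out an array, the lowest without VIN7 C. *LSM6* in W27 was -0.65 with array weights, -0.81 with the sign of W27 A turned, and -0.69 to 0.92 without an array. *LSM8* in VIN7 was -0.011 with VIN7 C turned, and *DHH1* in W27 was 0.99 with W27 A turned. The cause of these shifts was not tested. Same-lettered arrays of the strains deviated with r = -0.112, 0.108 and -0.259, within the range of differently lettered ones (-0.268 to 0.287). So few correlations cannot decide whether same-lettered arrays belong together. With the replicate letters as a block, 0 genes of the set were called between the strains, and the *DHH1* difference was -2.54 (adjusted p = 0.983 by limma). Where an array left out leaves 1 value of a gene, that value was given without a test.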
